A study of Mus musculus with 12 samples.

Results

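The mouse major histocompatibility complex (MHC) is a gene-dense stretch of chromosome 17, and 47 of the 12749 Ino80 peaks in a J1 embryonic stem cell library had their midpoint in it and were kept for description. They were chosen by position alone. The stretch ran from 34100000 to 36400000 in the mouse build mm9. It was split into class II (34100000 to 34550000), class III (34550000 to 35400000) and class I (35400000 to 36400000). A further 7 peaks lay within 50 kb of Pou5f1, the gene of the pluripotency factor Oct4, which sits inside the class I part. They were set apart by the rule of selection, so the class I values leave out the peaks around this gene unless stated. The remaining 609 peaks of chromosome 17, of 663 on it in all, served as the comparison.

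Of the 12 samples in the series, all from the mouse embryonic stem cell line J1, 1 was analysed here. In that sample, labelled J1_Ino80, chromatin of formaldehyde-fixed cells was sheared, Ino80 was pulled down with an antibody, and the DNA was sequenced (ChIP-seq) from a Nextera XT library. The cells were kept in ESGRO medium and moved to M15 medium for the ChIP, and the labels name no hairpin or other treatment for them. Its input library and the 10 libraries of the knockdown experiment were not analysed here. No value below has a replicate error, and no test between classes was made. The list gives positions only, so the depth behind a peak is unknown, peaks could not be ranked by strength, and the identity of the cells could not be checked against marker genes.

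Ino80 is the ATPase of the INO80 complex, which uses ATP to move nucleosomes and takes part in transcription, replication and DNA repair. The MHC is known for proteins that show peptides to T cells. Class I molecules, such as those of H2-K1 and H2-D1, show peptides made inside the cell. Class II molecules, such as those of H2-Aa and H2-Eb1, show peptides taken up by specialised immune cells. The class III part holds complement and tumour necrosis factor genes among many genes that most cells use, such as Ddx39b, an RNA helicase, and Ehmt2, a histone methyltransferase. Mouse embryonic stem cells are known to carry little MHC protein on their surface.

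Pou5f1 is the only gene whose mm9 position was available, and it was also the site of the widest peak of the whole stretch. That peak ran from 35634601 to 35648400, a width of 13.8 kb. It covered the gene (35642977 to 35647722) from end to end and reached 8.38 kb before its start and 0.678 kb past its end. The 250 bases before the first Pou5f1 start listed by RefSeq are printed because they are the one promoter here that can be tied to a peak, with each CpG dinucleotide in capitals. They are from GRCm38.p6, chr17:35505782-35506031, plus strand, and this position must not be compared with the mm9 positions in the text.

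Pou5f1 upstream: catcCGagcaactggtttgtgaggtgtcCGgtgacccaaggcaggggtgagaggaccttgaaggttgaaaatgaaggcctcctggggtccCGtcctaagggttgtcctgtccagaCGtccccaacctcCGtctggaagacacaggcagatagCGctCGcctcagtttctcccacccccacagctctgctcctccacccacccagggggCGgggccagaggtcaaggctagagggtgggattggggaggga

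This sequence holds 8 CpG, read on the strand printed, and its G and C content is 62%. Among the 32851 RefSeq promoter entries, 43% had at least as many CpG in the same 250 bases, and the median was 6. The median G and C content of these entries was 52.4%, below that of Pou5f1.

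The 7 peaks set apart around Pou5f1 stood closer together than those of any whole class, with a median distance of 3.4 kb from one to the next. In order along the chromosome their widths were 6.2, 13.8, 3.6, 2.0, 0.8, 7.8 and 1.4 kb. A run of 4 of them, less than 5 kb from one to the next, spanned 27.2 kb from 35634601 to 35661800, of which peaks covered 74.3%. Over the 105 kb set apart, peaks covered 34.0%. They are left out of every class value that follows, unless stated.

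Ino80 peaks were unevenly spread over the 3 classes. Class III, the part rich in widely used genes, held 27 of the 47 peaks (57.4%) on 38.7% of the length. Class I held 16 peaks (34.0%) on 40.8% of the length, and class II held 4 (8.51%) on 20.5%. Class III therefore had more peaks than its length would give in an even spread, and class II fewer.

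**Figure D1:**
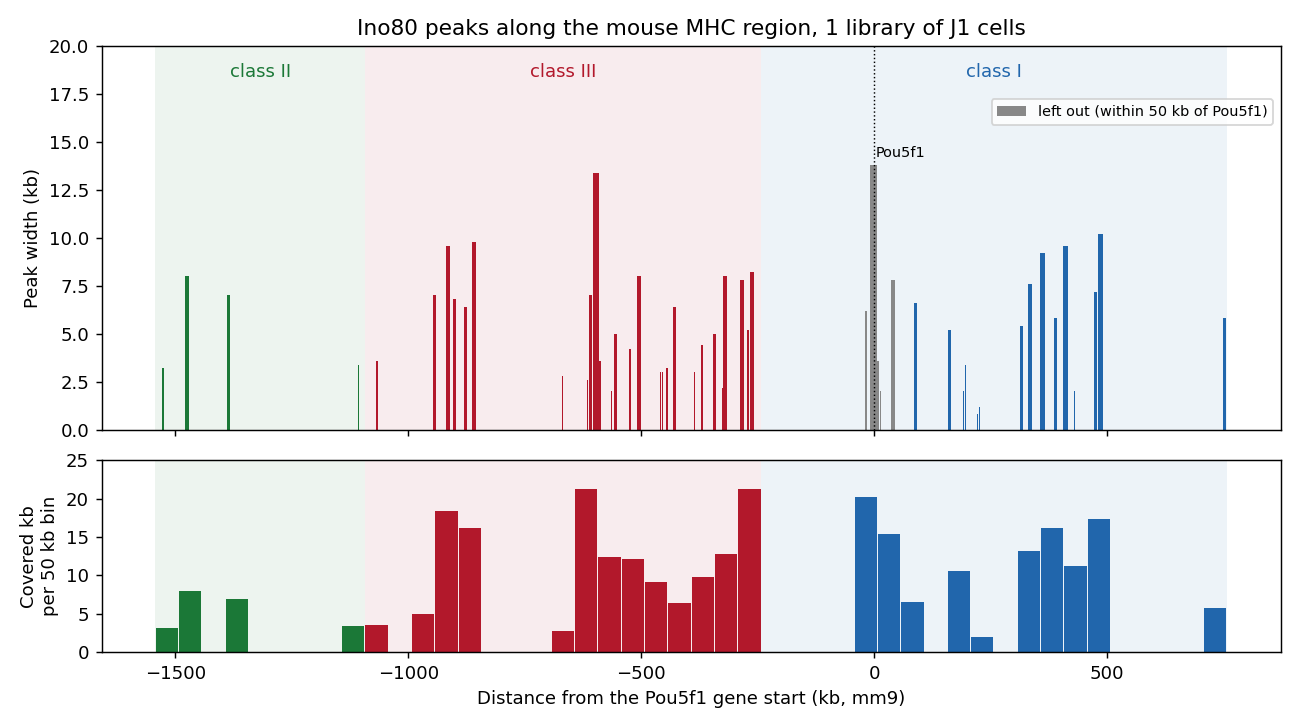
Upper panel: each Ino80 peak as a bar of its true width, with height giving its width in kb, against distance from the Pou5f1 gene start in kb (mm9). Lower panel: kb covered by peaks in each 50 kb bin, the peaks around Pou5f1 included. Peaks crowd in class III and around Pou5f1, and empty stretches of 237 to 274 kb lie in class II and at both sides of the class I peaks.

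In density, class III stood at 31.8 peaks per Mb (95% exact Poisson interval 20.9 to 46.2). Class I had 17.9 peaks per Mb (10.2 to 29.0) and class II 8.89 (2.42 to 22.8). The rest of chromosome 17 had 6.78 (6.26 to 7.35), measured from its first to its last peak without the MHC. These intervals cover counting error of independent peaks only, and peaks are not independent of their neighbours. Class III was thus 4.68 times as dense as the rest of the chromosome, class I 2.63 times and class II 1.31 times. The 1 Mb before and the 1 Mb after the MHC held 20 and 15 peaks, so with these limits and exclusions only class III was denser than both. Class I was also denser than both with the peaks around Pou5f1 kept, at 3.39 times the rest of the chromosome. With the inner limits moved 50 kb lower it had 20.1 peaks per Mb, about level with the denser flank. The intervals of class III and class I lay above the interval of the rest of the chromosome, whereas that of class II contained it. Class III was 1.78 times as dense as class I, and their intervals overlapped.

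Covered length gave the same order. Peaks covered 151 kb or 17.8% of class III, 83.0 kb or 9.27% of class I and 21.6 kb or 4.80% of class II. On the rest of chromosome 17 they covered 3.23%. The contrast with the rest of the chromosome was wider in covered length (5.51 times for class III) than in number (4.68 times), as the mean width was higher in class III.

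**Figure D2:**
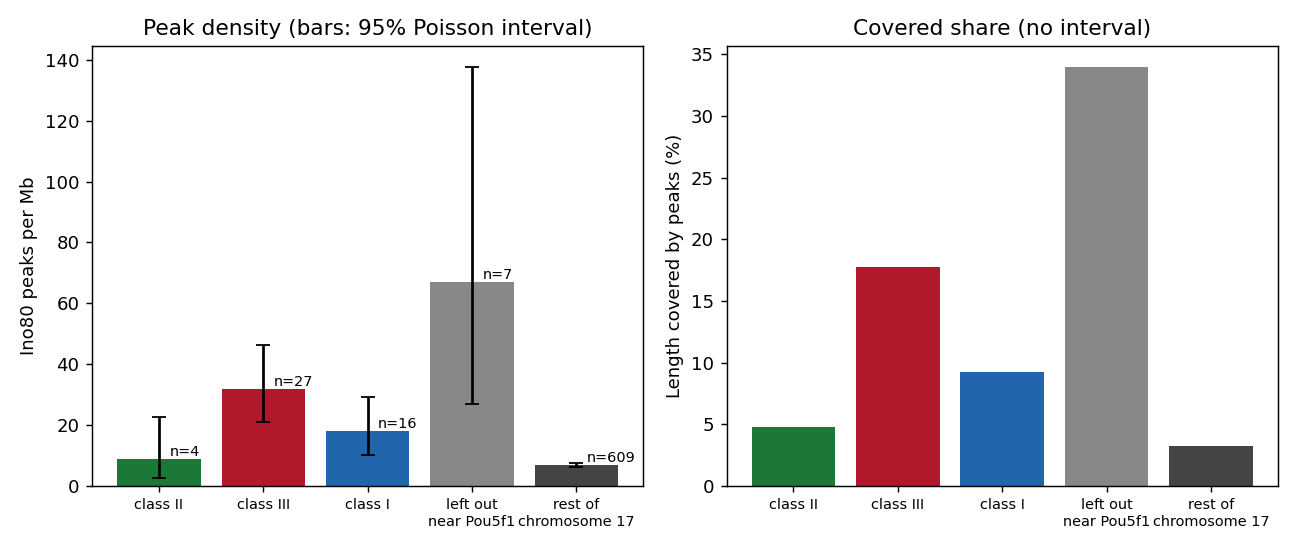
Left: Ino80 peaks per Mb in each class, around Pou5f1 and on the rest of chromosome 17, with 95% Poisson intervals for counting error and the number of peaks. Right: percentage of the length covered by peaks. Class III exceeds class I and class II in both, and class II lies closest to the rest of the chromosome.

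The value for class II depended on where the class was begun. The last peak before the MHC stretch, at 34087601 to 34096400, lay 18.6 kb from the first class II peak at 34115001 to 34118200. In the 50 kb before the limit stood 4 peaks of 7.2 to 9.2 kb that covered 65.6% of those bases. With the lower limit moved out by 50 kb, class II held 8 peaks, or 16.0 per Mb, and 10.9% of it was covered. The upper limit mattered less, with 1 peak of 2.6 kb in the 50 kb after it.

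Because the MHC is rich in genes, the number of peaks was also set against the number of genes. No annotation in mm9 was used. In the RefSeq gene table for GRCm38.p6, used for gene order only, 21 protein-coding genes are listed from H2-K1 to Btnl2 (class II), 57 from Notch4 to Ddx39b (class III) and 45 from H2-D1 to Trim39 (class I). The limits drawn by coordinate and by gene need not coincide. Per protein-coding gene, class III had 0.474 peaks (Poisson interval of the number of peaks, 0.312 to 0.689). Class I had 0.511 (0.324 to 0.767), here with the peaks around Pou5f1 because that gene is counted. The rest of chromosome 17 had 0.653 (0.603 to 0.707), from 609 peaks and 932 genes. Class III, 4.68 times as dense as the rest of the chromosome per Mb, thus had 0.725 times its peaks per gene, and the 2 intervals per gene overlapped. Covered length per gene was also lower in class III, at 2.65 kb against 3.11 kb.

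Class II had the fewest peaks per gene. Its 4 peaks gave 0.190 per protein-coding gene (0.0519 to 0.488), an interval below that of the rest of the chromosome. With the lower limit moved out by 50 kb the number of peaks rose to 8, but no gene number was matched to that longer stretch, so no value per gene is given for it. The 21 genes of this part include 11 with the H2- prefix, which marks MHC genes of the mouse. Among these is H2-K1, named above for a class I molecule, so the prefix does not by itself mark a class II gene.

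Among stretches of equal length, class III stood near the top. Of 104 consecutive windows of 850 kb on the rest of chromosome 17, 1 (0.962%) held 27 or more peaks, and the median window held 3. Over the autosomes it was 20 of 2802 windows (0.714%). By covered length, 3 of the windows of chromosome 17 (2.88%) and 19 of those on the autosomes (0.678%) reached the 151 kb of class III.

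Class I, without the peaks around Pou5f1, and class II were less unusual. For class I, 13 of 98 windows of 895 kb on the rest of chromosome 17 (13.3%) and 5.42% of the autosomal windows held 16 or more peaks. Class I had its 105 kb around Pou5f1, a dense part, cut out, whereas nothing was cut from the windows. The place of class I with those peaks kept was not tested. For class II, 27.9% of the 450 kb windows on the rest of the chromosome and 23.6% of those on the autosomes held 4 or more. The median 450 kb window of chromosome 17 held 1 peak, so the 4 peaks of class II were not few by length. These shares describe where the classes stand along the chromosomes of this library and are no test.

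**Figure D3:**
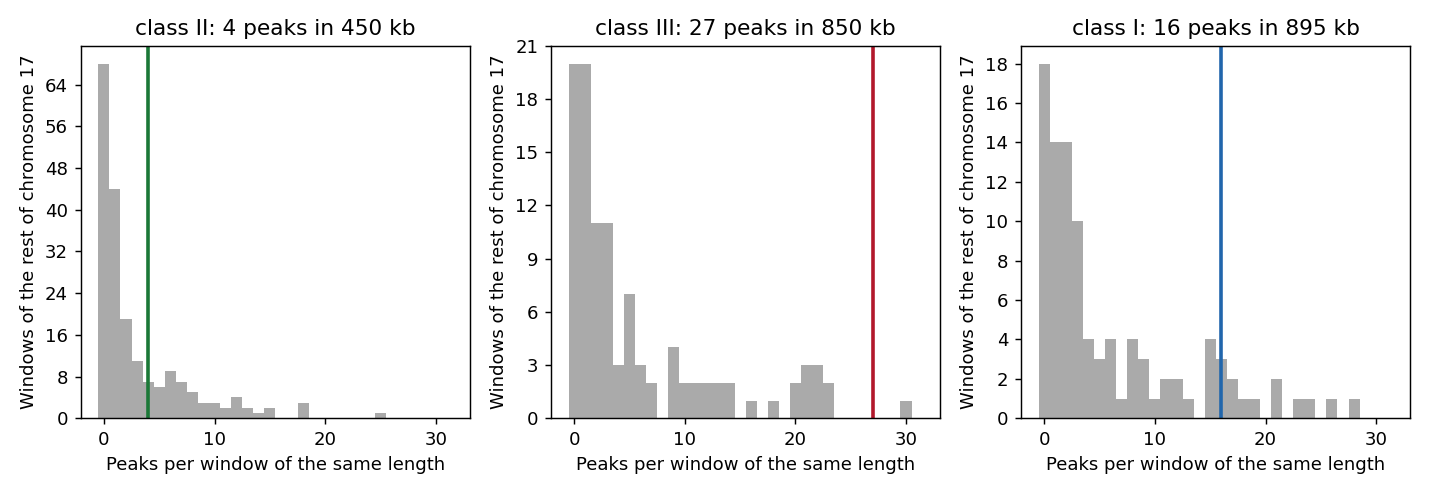
Number of windows (vertical axis) of the rest of chromosome 17 by the number of Ino80 peaks they hold (horizontal axis), for windows of the length of each class. The coloured line is the class itself: class III, with 27 peaks, is reached by 1 of 104 windows, and class II, with 4, by 27.9%.

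The 4 peaks of class II stood well apart. The first, at 34115001 to 34118200, was 3.2 kb wide, and the second, at 34163401 to 34171400, was 8.0 kb and the widest of the class. The third, at 34254201 to 34261200, measured 7.0 kb. After it came 273.6 kb without a peak, from 34261201 to 34534800, which took up 60.8% of class II. The fourth peak, of 3.4 kb at 34534801 to 34538200, ended close to the class III limit. No peak of class II had a neighbour within 5 kb, and the smallest distance, 45.2 kb, was between the first and the second.

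Class III began sparsely and then filled. Its first peak, of 3.6 kb at 34573801 to 34577400, was followed by 117.6 kb without a peak. Next came 5 wide peaks from 34695001 to 34789200, of 7.0, 9.6, 6.8, 6.4 and 9.8 kb, which covered 42.0% of their 94.2 kb. A stretch of 183.4 kb without a peak ended this group. The other 21 peaks stood between 34972601 and 35384800, a span of 412 kb of which they covered 26.2%. These groups were delimited after the positions were seen, at distances of 100 kb or more.

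The widest class III peak belonged to the tightest group. From 35026001 to 35056600, 4 peaks of 2.6, 7.0, 13.4 and 3.6 kb were separated by 1.6, 1.2 and 1.2 kb, so that peaks covered 86.9% of 30.6 kb. The peak of 13.4 kb, at 35038401 to 35051800, was the one class III peak of 10 kb or more. At the other end, the narrowest class III peak, at 35077601 to 35079600, measured 2.0 kb. The smallest distance, 1.0 kb, lay between 2 peaks of 3.0 kb at 35182801 to 35185800 and 35186801 to 35189800, and no distance anywhere in the list was smaller. None of the 27 peaks was 1 kb or less, which allows a share of up to 11.1%.

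Most class I peaks lay between empty stretches. Between the last class III peak, which ended at 35384800, and the first of the peaks around Pou5f1, at 35622201, lay 237.4 kb without a peak, of which 222 kb fell in class I. Another stretch of 258.4 kb, from 36134001 to 36392400, took up 25.8% of the full length of class I. Behind it stood a single peak of 5.8 kb, at 36392401 to 36398200, the last of the MHC stretch. The other 15 class I peaks all lay between 35728001 and 36134000, a span of 406 kb.

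In the gene order of GRCm38.p6, the 7 protein-coding genes from H2-D1 to H2-Q10 come one after another directly before Pou5f1, with no other protein-coding gene between them. They encode class I molecules. The 26 genes from Pou5f1 to Gnl1 contain none with the H2- prefix and include Ddr1, a collagen receptor, and Tubb5, a tubulin. From H2-T24 to Trim39 follow 12 more, 5 of them with the H2- prefix. The peaks have the order empty stretch, peaks, empty stretch, last peak in the same direction, but none of these genes other than Pou5f1 was placed in mm9, so no peak or empty stretch was assigned to a gene.

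Together the 3 longest empty stretches measured 769 kb, or 33.5% of the 2.3 Mb. They were longer than most distances of the chromosome but far from its longest. Among the 662 distances between neighbouring peaks of chromosome 17, that of 273.6 kb ranked number 78, and 14.0% were at least as long as the 237.4 kb stretch. The longest distance on the rest of the chromosome was 3837 kb. In bins of 50 kb, 5 of 9 in class II (55.6%), 4 of 17 in class III (23.5%) and 10 of 20 in class I (the peaks around Pou5f1 included) had no covered base, compared with 77.5% of 1794 bins on the rest of chromosome 17.

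Neighbouring peaks stood closer in class III than on the rest of chromosome 17. The median distance from the end of a peak to the start of the next was 12.8 kb in class III (26 distances, 95% order-statistic interval 6.0 to 22.6 kb). In class I it was 19.2 kb (15 distances, 3.0 to 37.0 kb), and in class II 82.8 kb (3 distances, too few for an interval). The rest of chromosome 17 had a median of 28.0 kb (607 distances, 23.6 to 33.0 kb). The interval of class III lay below that of the rest of the chromosome, and that of class I overlapped both. The lower median of class III against class I was lost with the inner limits moved 50 kb lower, when both were 13.2 kb, and with the peaks around Pou5f1 kept class I was at 13.1 kb. With the lower limit of class II moved out by 50 kb its median was 18.6 kb, from 7 distances.

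Short distances were about as frequent in the classes as on the rest of the chromosome. Those under 5 kb made up 6 of 26 in class III (23.1%, 95% Clopper-Pearson interval 8.97 to 43.6%) and 4 of 15 in class I (26.7%, 7.79 to 55.1%). On the rest of chromosome 17 they made up 17.6% (14.7 to 20.9%), inside both intervals. Distances of 200 kb or more numbered 1 of 3 in class II and 1 of 15 in class I (6.67%, 0.169 to 31.9%). In class III they numbered 0 of 26, which allows a share of up to 11.5% by 3 counts of the total. The Clopper-Pearson limit, as used for the other shares, was 13.2%. On the rest of the chromosome they made up 16.3% (13.5 to 19.5%). The 237.4 kb after the last class III peak cross the class limit and are in none of these counts. The lengths of the classes themselves limit how long a distance within them can be.

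**Figure D4:**
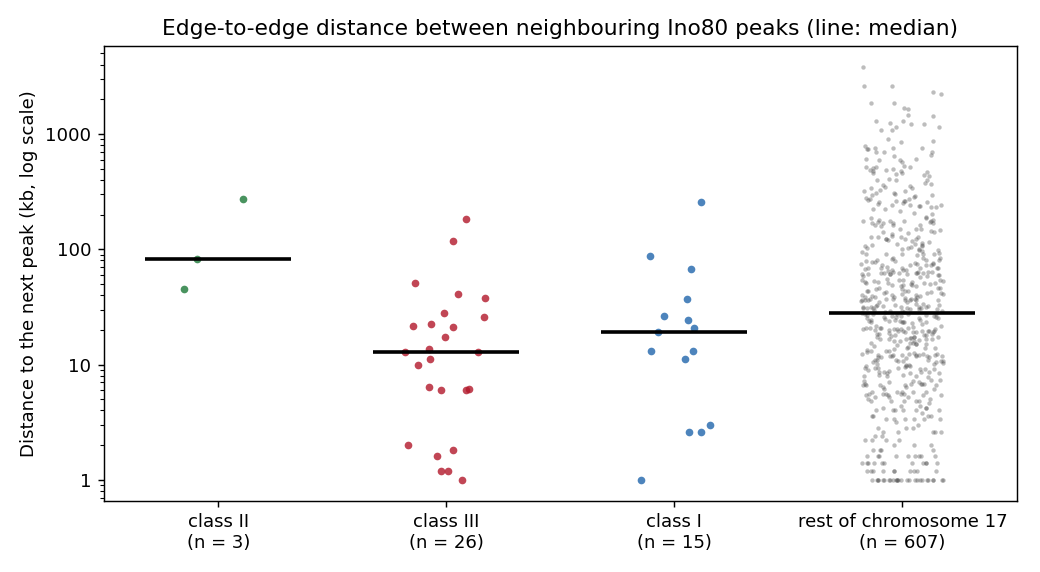
Distance in kb (log scale) from each peak to the next, both in the same class, with 1 point per distance and a line at the median. Class III has the lowest median, 12.8 kb, against 28.0 kb on the rest of chromosome 17, whose distances reach far beyond those of the classes.

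Widths differed little between the classes. The median width was 5000 bp in class III (27 peaks, order-statistic interval 3200 to 7000 bp), 5600 bp in class I (16 peaks, 2000 to 7600 bp) and 5200 bp in class II (4 peaks, from 3200 to 8000 bp). On the rest of chromosome 17 the median was 3800 bp (3600 to 4000 bp). All 3 classes were above it by 1.32 to 1.47 times, but each class's interval or range included 3800 bp. Taken as 1 group, the 47 peaks had a median of 5200 bp (3600 to 6800 bp). Very wide peaks were not more frequent: 2 of 47 reached 10 kb (4.26%, Clopper-Pearson interval 0.520 to 14.5%) against 6.24% (4.45 to 8.46%), and the widest of the rest of the chromosome, at 31.8 kb, was far wider than any here.

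Class I had both wide and very narrow peaks. Its widest measured 10.2 kb, at 36123801 to 36134000, and its narrowest 0.8 kb, at 35864401 to 35865200. The 2 peaks of 1 kb or less in the classes were both in class I, 12.5% of its 16 (1.55 to 38.3%), compared with 2.46% (1.38 to 4.03%) on the rest of the chromosome. The closest pair of the class, 1.0 kb apart, had widths of 2.0 and 3.4 kb, at 35833801 to 35835800 and 35836801 to 35840200.

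**Figure D5:**
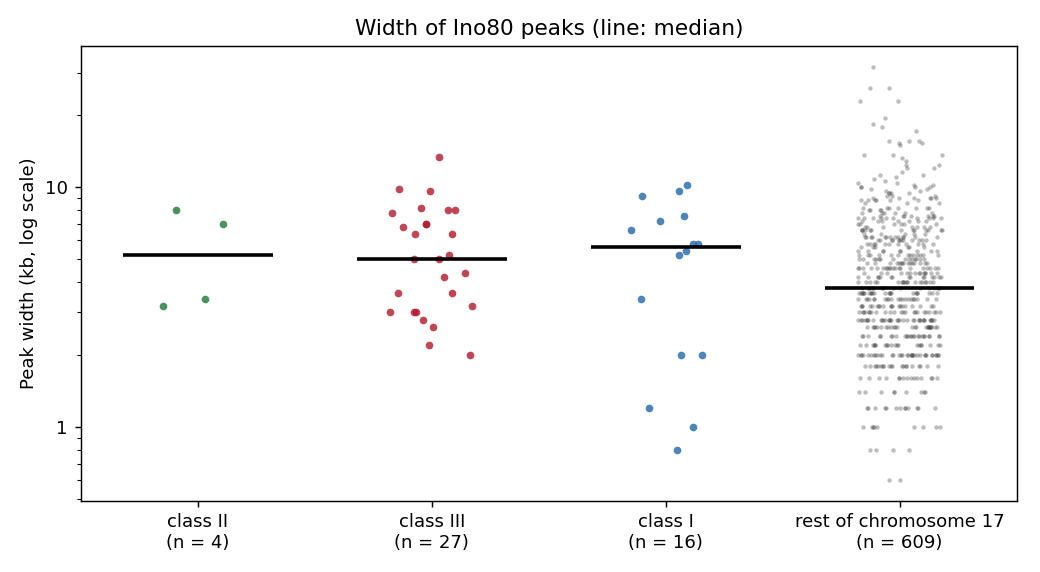
Width in kb (log scale) of every peak by class and on the rest of chromosome 17, with 1 point per peak and a line at the median. Medians of the classes lie at 5.0 to 5.6 kb and that of the rest at 3.8 kb, within a wide overlap of the points.

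Peaks with a close neighbour had a lower median width in class I and, by less, in class III. In class I the 8 peaks with a neighbour under 5 kb away had a median width of 2000 bp (800 to 10200 bp). Its 6 peaks at 5 to 20 kb from the nearest had 6700 bp (5400 to 9600 bp). In class III the medians were 4400 bp for 10 peaks and 5700 bp for 14. On the rest of chromosome 17 the order was the other way, with 4600 bp under 5 kb (177 peaks) and 4200 bp at 5 to 20 kb (193 peaks). The ranges overlap and the groups are small, and this contrast was seen in the data before it was described.

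Of the 47 peaks, 18 (38.3%) had a neighbour less than 5 kb away, compared with 29.1% on the rest of chromosome 17. None of the 47 stood 100 kb or more from any other peak, whereas 12.2% did on the rest of the chromosome. Distance to the nearest peak depends on density, so this is not a trait separate from the densities above. The megabase from 35 to 36 Mb had 35 peaks in all, with 20 peaks of class III, 8 of class I and the 7 around Pou5f1.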

How the data were processed

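The list of Ino80 peaks was deposited by the authors with a name, chromosome, start, end and constant strand sign per peak, and no score. Tools named in the submitters' processing notes are SICER 1.1, Bowtie 0.12.8, CASAVA 1.7 and bedtools, with builds hg19 and mm9 and no roles. Caller settings and the control library were not given in the sources used. Deposited starts were multiples of 200 bp and deposited ends 1 bp short of one, taken to count from 0, and 1 bp was added to each. SICER joins enriched windows, so the settings affect width, distance and number of peaks.

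A peak belonged to the class that held its midpoint. Lengths exclude the 105 kb around Pou5f1 in class I. Distances across a class limit or to a peak left out were counted in no class. Windows of equal length started at the first peak of each chromosome and did not touch the MHC. Intervals (95%) were exact Poisson, Clopper-Pearson or order-statistic intervals (scipy 1.17.1, Python 3.11.15). The Poisson and order-statistic intervals were checked on random draws with a known mean or median, and the Clopper-Pearson interval was not checked. Density, width and distance were checked on layouts with known answers. The limit for a count of 0 is 3 counts of the total.

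The region, classes and comparisons were chosen with earlier results of these data known. Planned annotation of peaks by genes in mm9 was not made, and of the gene lists only the boundary genes were used. The genes named by rule are Pou5f1 and these boundary genes, and other genes appear as background. For class III, 44 of 57 genes (77.2%) had a RefSeq promoter entry, against 90.5% in class II and 88.9% in class I. Promoter composition was not compared between classes.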

Additional observations from a re-analysis of the deposited data

How the results depend on the processing

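Class III had the highest and class II the lowest density in all 10 settings tried, and all 3 classes were above the rest of chromosome 17 in each. These 10 include the reported setting, and counting any overlap with a class gave the same values as it. Of 102 values under alternatives, 93 stayed within the interval set for the reported value, among them every covered share and median width. Many of these could not move, because a setting that leaves a part untouched returns the reported value. Covered shares were held against the scaled Poisson interval of the number of peaks, and window shares against a Clopper-Pearson interval. In class II, with too few values for an interval, median width and distance were held against their lowest and highest values. Keeping the widest 50% of all peaks lowers densities by construction, to 20 peaks per Mb in class III and 3.83 on the rest of chromosome 17. Keeping the narrowest 50% gave 11.8 in class III, 6.70 in class I and 3.30 on the rest. Merging peaks less than 5000 bp apart gave the rest of the chromosome 5.59 peaks per Mb and a median distance of 41.0 kb. From midpoint to midpoint that median was 33.7 kb. With the outer limits moved out by 50 kb, an alternative chosen after the data were seen, the median distance in class II was 18.6 kb. The class III density was 3.57 to 5.22 times that of the rest over these settings. No depth or score per peak was given, so no stricter threshold could be set. No paired analysis was possible because only 1 library was analysed.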

Other observations

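Both flanks of the MHC stretch also held more Ino80 peaks than the rest of chromosome 17 on average. The 1 Mb before it held 20 peaks, which covered 11.1% of it and had a median width of 4300 bp. The 1 Mb after it held 15 peaks, covering 10.7%, with a median of 4600 bp. After the last of these 15 peaks came 912 kb without a peak, longer than any such stretch in the MHC and reaching beyond the flank. The widest peaks of the flanks, at 26.0 kb before and 19.4 kb after, exceeded the widest in the MHC, 13.8 kb. Both flanks exceeded class II (8.89 peaks per Mb, 4.80% covered) and fell below class III (31.8 per Mb, 17.8%). The order against class II depended on its lower limit. With that limit moved out by 50 kb, class II had 16.0 per Mb and 10.9% covered, above the flank after the MHC. Those 50 kb held 4 of the 20 peaks of the flank before. Class I without the peaks around Pou5f1, at 17.9 per Mb and 9.27%, lay between the flanks in number and below both in covered share. This order depended on leaving those peaks out. With them kept, class I was above both flanks in number and in covered share, the latter at 11.9%.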
